A study of Astyanax mexicanus with 6 samples.

Results

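The genes of the ephrin, semaphorin, Slit and netrin guidance systems were compared between 2 cell lines of the Mexican tetra, *Astyanax mexicanus*. A gene was taken by its name, where the name began with the stem of an ephrin, Eph receptor, semaphorin, plexin, neuropilin, Slit, Robo, netrin or Unc5 gene. The rule used no measured value and took 97 of the 27420 listed genes, of which 18877 carry a name. It found 14 ephrin genes, 16 Eph receptor genes, 32 semaphorin genes, 12 plexin genes, 4 neuropilin genes, 3 Slit genes, 6 Robo genes, 4 netrin genes and 5 Unc5 receptor genes. The remaining gene, *unc50*, is no guidance receptor and was caught only by the start of its name. The lines are SEF, embryonic fibroblasts of surface fish, and PEF, embryonic fibroblasts of Pachón cavefish, both wild type, with no treatment in the labels, and grown at 28 °C without added CO2. Bulk RNA of each line was sequenced as 3 libraries. Per the study, the lines were grown from isolated clones of cells of dissociated early embryos and passaged many times. A figure legend of the study calls the libraries independent biological replicates, without saying how they were kept apart. Each population is thus represented by 1 line, and the 3 libraries of a line do not come from different animals. Population, clone and time in culture cannot be told apart, and the p-values measure only the spread between libraries, which may be technical.

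These 4 systems are best known from the growth cone, the moving tip of a growing axon, which they attract or repel. Ephrins are membrane-bound ligands, and their Eph receptors are receptor tyrosine kinases of neighboring cells. Semaphorins act through plexins, and the secreted class 3 semaphorins mostly need a neuropilin as a coreceptor. Slits repel through Robo receptors, and netrins attract through DCC and neogenin or repel through Unc5 receptors. Outside the nervous system the same proteins act in vessel growth, tissue boundaries and cell migration, and fibroblasts are known to express many of them. Teleost fishes kept extra copies of many of these genes from an ancient genome duplication, which carry the suffixes a and b.

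Levels are given as TPM, a transcript measure that corrects for gene length and scales each library to the same total, and differences as log2 fold changes of PEF over SEF from read counts. Libraries held 33381563 to 39156850 reads on genes in SEF and 36790663 to 42506026 in PEF. Over all genes, 20784 to 21360 had reads in a SEF library and 18728 to 19026 in a PEF library. Absence from PEF was thus not particular to guidance genes. The fibroblast label was checked against 10 marker genes, whose summed level was 8448 to 11830 TPM in SEF and 8893 to 15143 TPM in PEF. Collagen genes made up most of it, and *vim* had a mean of 3.32 TPM in SEF and 1.23 TPM in PEF. Of the 10 markers, 6 differed between the lines by the test described below, in both directions. *col1a1a*, *col1a1b* and *pdgfra* were higher in PEF, at log2 fold changes of 0.91, 1.19 and 1.12. *fn1a*, *fn1b* and *vim* were lower, at −1.18, −1.58 and −1.30. *lum* was low, at 0.89 to 9.77 TPM in SEF and 0.61 to 1.75 TPM in PEF. Of the markers listed for other cell types, some had at most 3 reads in any library and others were expressed. The former were *elavl3*, *elavl4* and *gap43* of neurons, *cdh5* of endothelium, *epcam* and *krt5* of epithelium, and *sox10* and *foxd3* of neural crest. The same held for *myod1* of muscle and for *spi1b* and *gata1a* of blood. Of the neuron list, *snap25a* had 0.72 to 3.13 TPM in SEF and 4.18 to 4.59 TPM in PEF. *snap25b* had 3.89 to 5.38 TPM in SEF and 0.49 to 0.61 TPM in PEF, and *syt1a* 0.25 to 0.33 TPM and 0.05 to 0.07 TPM. The summed neuron list was higher in PEF, at 19.0 to 24.6 TPM against 5.15 to 9.32 TPM, and *nefma* alone had 13.7 to 19.4 TPM in PEF and at most 0.01 TPM in SEF. Of the neural crest list, *tfap2a* was at 1.19 to 1.46 TPM in SEF and 2.19 to 3.94 TPM in PEF and *mitfa* at 0.31 to 0.99 TPM in SEF and at most 0.06 TPM in PEF, and the list summed to 1.79 to 2.23 TPM in SEF and 2.19 to 3.94 TPM in PEF. The endothelium list summed to 96.4 to 132 TPM in SEF and 74.0 to 112 TPM in PEF, nearly all from *kdrl* and *erg*. The keratin gene *krt4* was at 331 TPM or more in every library. Lower in PEF were the epithelial *tp63*, at 0.36 to 1.49 TPM in SEF and 0.07 to 0.12 TPM in PEF, and *cldn7b*, at 0.27 to 0.44 TPM and at most 0.04 TPM. *esrp1* had 0.08 to 0.09 TPM in SEF and 0 in PEF. The muscle list summed to 1.70 to 2.31 TPM in SEF and 0.37 to 1.44 TPM in PEF, and the blood list to 0.54 to 0.85 TPM and 0.16 to 0.38 TPM. What part these cell types have in the differences below was not tested. In bulk RNA, fewer cells of a type and less RNA per cell cannot be told apart.

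Guidance genes were expressed widely in both lines. Of the 97 genes, 42 were at 1 TPM or more in every library, and 31 stayed under 1 TPM in every library. By the mean of a line, 43 genes reached 1 TPM in both lines, 11 in SEF only and 9 in PEF only. At a mean of 10 TPM or more there were 27 genes in SEF and 24 in PEF, 18 of them in both. Enough reads for a test were found for 84 genes. In edgeR's quasi-likelihood test, with p adjusted by Benjamini and Hochberg's method over all genes tested, 63 of the 84 (75%) differed at an adjusted p under 0.05, where 63.5% of all tested genes did. Of these, 27 (32.1% of the 84) were higher in PEF, against a background of 30.4%, and 36 (42.9%) were lower, against 33.1%. The median log2 fold change of the tested guidance genes was −0.13, and that of all tested genes was −0.02. The median size was 1.57 against 0.77 over all genes, and 34 guidance genes were called with a log2 fold change of at least 2 in size, where 23.6% of all tested genes were. For 65 of the 84, SEF and PEF libraries were fully separate in normalized counts per library, beside 70.8% of all tested genes. These were the 63 called genes, *NTN1* and *plxnb2a*. Of the 84 genes, 16 had a mean of fewer than 10 reads in 1 line and passed the filter through the other. Such a filter favors genes that differ, and all 16 were called. Among the 68 with at least 10 reads on average in both lines, 47 were called, 21 higher and 26 lower, where 57.7% of all such genes were called, 31.6% higher and 26.1% lower. Their median size was 1.22 against 0.61, and 20 of them were called with a size of at least 2, where 11.5% of all such genes were. Counts by family below cover few genes each. They stand beside the same shares of all tested genes, 63.5% called, 30.4% higher and 33.1% lower.

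Ephrin-A genes, whose products are held to the membrane by a lipid anchor, were mostly lower in PEF. Of the 6 tested, 5 fell and none rose, where 33.1% of all tested genes fell. The summed level of the 7 listed was 130 ± 14.2 TPM (SD, n = 3) in SEF and 43.8 ± 3.88 TPM (SD, n = 3) in PEF. No SEF library was under 122 TPM and no PEF library above 47.9 TPM. Most of both sums, with means of 95.8 TPM in SEF and 28.7 TPM in PEF, was *efna5a* (ENSAMXG00000029244), one of the ephrins that map retinal axons onto the midbrain. It had 112, 90.6 and 84.9 TPM in SEF replicates 1, 2 and 3, and 24.0, 33.2 and 28.9 TPM in PEF replicates 1, 2 and 3. All SEF libraries thus lay above all PEF libraries, with a log2 fold change of −1.72 ± 0.18 (SE; edgeR adjusted p = 0.000157). Its copy *efna5b* had 4.20, 4.11 and 4.33 TPM in SEF and 1.36, 1.38 and 1.56 TPM in PEF, again without overlap and with a similar log2 fold change of −1.28 ± 0.20 (SE; edgeR adjusted p = 0.00126). The largest difference of this class was that of *efna3a* (ENSAMXG00000033304), which was close to silent in PEF. Its levels were 8.83, 9.47 and 7.02 TPM in SEF and 0.09, 0.07 and 0.17 TPM in PEF, and 3 to 6 reads remained in a PEF library where SEF libraries had 601 to 799. The log2 fold change was −7.15 ± 0.25 (SE; edgeR adjusted p = 2.06e-06). With so few PEF reads, this SE does not fully cover counting error. The other genes that fell were *efna2b*, at −0.82, and *efna1a*, at −1.76. *efna1a* had 12 to 38 reads in PEF, the most in PEF replicate 1, and without that library its value was −2.56. Without PEF replicate 2 it was −1.46 and its call was lost (edgeR adjusted p = 0.0553). The only ephrin-A gene tested that did not pass was *efna1b*, at 0.34 with a 95% interval of −0.90 to 1.58, where SEF replicate 3 had 10.8 TPM and the other SEF libraries 3.75 and 2.61 TPM. Without that library it was called, at 1.20 (edgeR adjusted p = 0.0112).

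Ephrin-B genes, which encode transmembrane ligands that also signal back into their own cell, had calls in both directions. Of 7 rows tested, 4 rose, 1 fell and 2 did not pass, and 2 of the rows that rose carry the name *efnb2b*. Ephrin-B2, the arterial partner of EphB4 in vessels, had the largest rise of the guidance genes, and the files list its b copy as 2 genes. *efnb2b* ENSAMXG00000042769 had 0 reads in every SEF library, a count that leaves room for up to 3, and 600, 478 and 363 reads or 52.7, 34.6 and 27.2 TPM in PEF. Against that floor it was at least 161-fold higher in PEF (edgeR adjusted p = 6.24e-05). *efnb2b* ENSAMXG00000041552 had 1 read in SEF replicate 3 and none in the other SEF libraries, and 378, 299 and 229 reads or 41.7, 27.3 and 21.1 TPM in PEF. It was at least 102-fold higher in PEF (edgeR adjusted p = 1.43e-05). The TPM of the first row over the second was 1.26, 1.27 and 1.29 in the 3 PEF libraries, so both moved together, and whether they are separate genes or pieces of 1 gene is not given in the files. The a copy, *efnb2a* (ENSAMXG00000012739), was expressed in both lines, at 11.0, 12.4 and 11.8 TPM in SEF and 38.9, 46.5 and 31.7 TPM in PEF. Its libraries did not overlap, and its log2 fold change was 1.81 ± 0.17 (SE; edgeR adjusted p = 0.000103). The ephrin-B1 gene is listed as *EFNB1*, with a mean of 5.24 TPM in SEF and 12.1 TPM in PEF and a log2 fold change of 1.26, and as *efnb1*, at 20.4 and 16.9 TPM and −0.15, which did not pass. Between rows of like name the authors' counting could have split reads. *efnb3a* did not pass at −0.12, and *efnb3b* fell by 1.37 on the log2 scale. With both *efnb2b* rows the ephrin-B sum was 62.4 ± 0.411 TPM (SD, n = 3) in SEF and 153 ± 33.1 TPM (SD, n = 3) in PEF, and without them 61.9 to 62.6 TPM in SEF and 71.1 to 92.6 TPM in PEF, still without overlap. With both *efnb2b* rows, the sum of all ephrins was alike in level, at 193 ± 14.4 TPM in SEF and 197 ± 32.0 TPM in PEF (SD, n = 3 each), while its make-up differed. That likeness depends on counting both rows. They took 16.8% to 23.3% (ENSAMXG00000042769) and 13.0% to 18.5% (ENSAMXG00000041552) of the ephrin sum in PEF, and at most 0.0432% in SEF. Ephrin sums, like all sums and shares given here, are described without a test, since 3 libraries against 3 cannot give a two-sided exact permutation p under 0.1.

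Among the Eph receptors, the gene with the highest mean level differed between the lines. Of 13 tested, 4 were higher in PEF, 5 were lower and 4 did not pass. *epha2b* (ENSAMXG00000012491), a copy of the gene for EphA2, a receptor of epithelial and tumor cells in mammals, had 145, 150 and 118 TPM in SEF and 20.5, 22.8 and 21.3 TPM in PEF. The SEF libraries were all far above the PEF libraries, with a log2 fold change of −2.58 ± 0.13 (SE; edgeR adjusted p = 7.18e-06). The other copy, *epha2a* (ENSAMXG00000017007), had 20.3, 32.2 and 30.1 TPM in SEF and 50.7, 99.5 and 80.9 TPM in PEF. It was lowest in replicate 1 of each line but did not overlap between the lines, and its log2 fold change was 1.59 ± 0.30 (SE; edgeR adjusted p = 0.00285). *epha2b* took 44.1% to 47.6% of the summed Eph receptor TPM in SEF and 10.5% to 11.6% in PEF, while *epha2a* took 6.19% to 12.1% in SEF and 28.6% to 45.6% in PEF. *EPHB3* took 9.49% to 11.5% in SEF and 23.1% to 29.8% in PEF. In PEF replicate 1 it led, with 52.7 TPM against 50.7 TPM for *epha2a*. *epha3* (ENSAMXG00000016897), whose product binds ephrin-A5 with high affinity in mammals, had 62.8, 48.7 and 26.4 TPM in SEF and 2.08, 2.11 and 3.22 TPM in PEF. Its SEF libraries spread more than 2-fold, yet the lowest stood far above every PEF library, and the log2 fold change was −4.18 ± 0.36 (SE; edgeR adjusted p = 6.55e-05). *epha4l* (ENSAMXG00000006406), named as a gene like that of EphA4, a receptor for ligands of both ephrin classes, was low throughout. It had 2.54, 2.07 and 1.82 TPM in SEF and 0.15, 0.35 and 0.21 TPM in PEF, again without overlap, with a log2 fold change of −3.02 ± 0.34 (SE; edgeR adjusted p = 0.000250). The other genes that fell were *epha7*, at −0.39, and *ephb2a*, which had 0 reads in PEF, where SEF libraries had 13 to 41, and was at least 8.96-fold lower. *epha7* lost its call when any of 5 libraries, all but SEF replicate 3, was left out, at edgeR adjusted p-values of 0.0648 to 0.0967. The other genes that rose were *EPHB3*, at 0.74, *ephb4a*, at 0.56, and *epha4a*, at 1.66 on 14 to 70 reads a library. The call of *ephb4a* was lost without SEF replicate 2, PEF replicate 2 or PEF replicate 3, at values of 0.46 to 0.54. *ephb4b*, the more abundant copy of the gene for the ephrin-B2 receptor EphB4, had a mean of 38.0 TPM in SEF and 25.9 TPM in PEF and did not pass, at −0.52 with a 95% interval of −1.05 to 0.00309 (edgeR adjusted p = 0.0757). It was called without SEF replicate 3 and without PEF replicate 1, at −0.66 and −0.76. The summed EphA level was 218 ± 32.0 TPM in SEF and 106 ± 26.1 TPM in PEF, and the summed EphB level 80.0 ± 12.5 TPM in SEF and 88.2 ± 11.5 TPM in PEF (SD, n = 3 each).

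**Figure D1:**
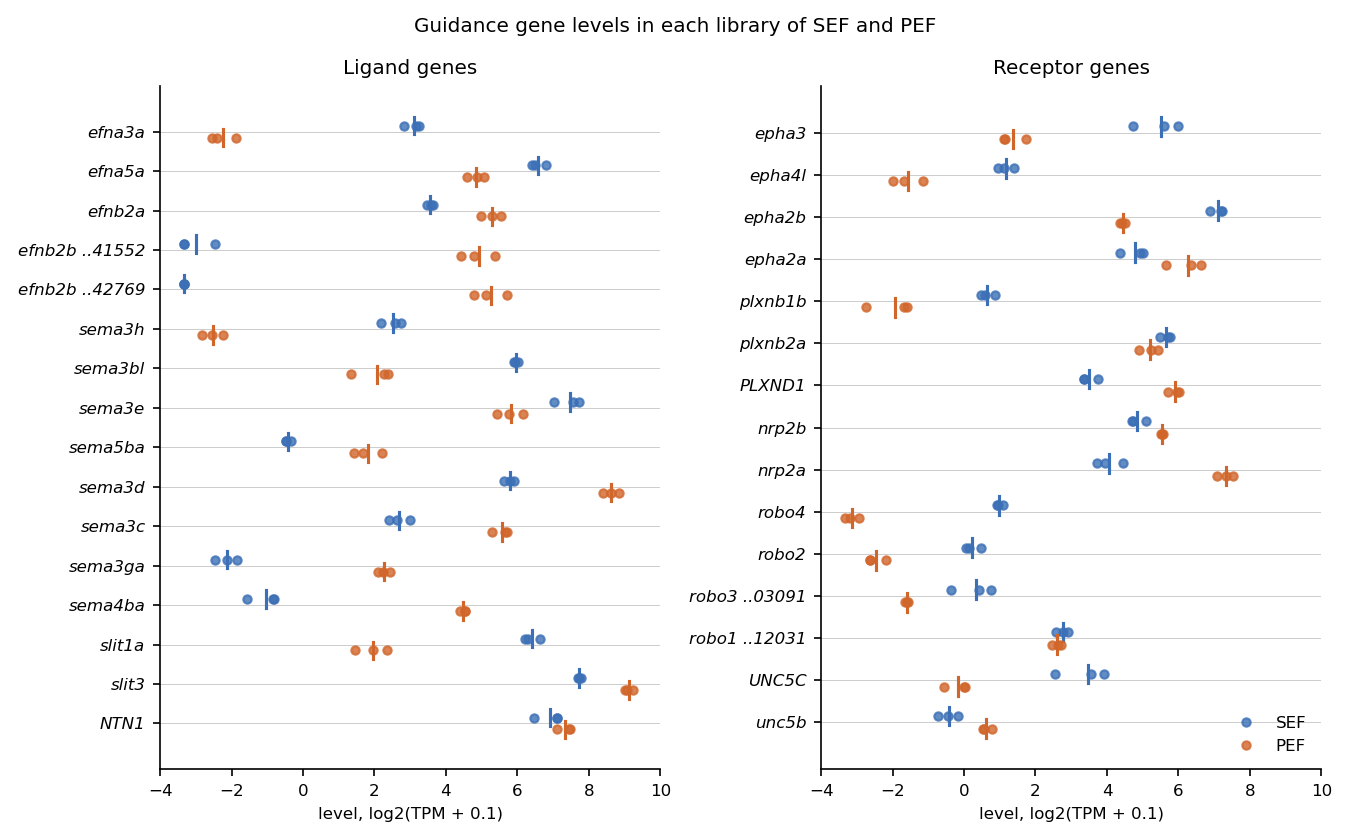
Level of each guidance gene of large change or highest family level in every library, as log2(TPM + 0.1) on the x axis, with ligand genes on the left and receptor genes on the right. Points are the 3 SEF (blue) and 3 PEF (orange) libraries, vertical ticks the mean of a line, and 2 dots with digits in a gene label stand for the last digits of an identifier where a name is listed more than once. SEF and PEF overlap for *robo1* and *NTN1*, and for no other gene shown.

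Semaphorins were the largest family and had the highest summed ligand level, 392 ± 51.5 TPM in SEF and 599 ± 74.0 TPM in PEF (SD, n = 3 each). Of 26 tested, 9 were higher in PEF, 12 were lower and 5 did not pass. Most of the RNA belonged to class 3, the secreted semaphorins that repel axons and vessel cells. Of its 11 tested genes 10 were called, 4 higher and 6 lower, beside 63.5% of all tested genes called. *sema3d* (ENSAMXG00000000931), which guides axons and neural crest cells in zebrafish, was the most abundant semaphorin of PEF. It had 55.8, 49.6 and 59.4 TPM in SEF and 457, 396 and 337 TPM in PEF, so that the lowest PEF library was more than 5 times the highest SEF library. The log2 fold change was 2.88 ± 0.15 (SE; edgeR adjusted p = 7.75e-06). *sema3e* (ENSAMXG00000000874), whose product binds plexin D1 without a neuropilin in mouse, was the most abundant semaphorin of SEF. It had 213, 189 and 131 TPM in SEF and 70.7, 53.9 and 43.4 TPM in PEF, without overlap, with a log2 fold change of −1.56 ± 0.22 (SE; edgeR adjusted p = 0.000700). *sema3e* took 38.9% to 49.0% of the semaphorin TPM in SEF and 8.32% to 10.6% in PEF, and *sema3d* took 12.2% to 17.7% in SEF and 64.6% to 68.3% in PEF.

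Further class 3 genes were on in 1 line and low or close to silent in the other. *sema3c* (ENSAMXG00000006459), needed for the outflow tract of the heart in mouse, had 5.16, 7.89 and 6.12 TPM in SEF and 51.8, 50.3 and 39.3 TPM in PEF. All PEF libraries were well above all SEF libraries, at a log2 fold change of 2.99 ± 0.18 (SE; edgeR adjusted p = 1.47e-05). *sema3ga* (ENSAMXG00000000186), a copy of the gene for semaphorin 3G, which vessels express in mammals, had 0.13, 0.08 and 0.18 TPM in SEF and 5.32, 4.64 and 4.20 TPM in PEF. The SEF libraries had 9 to 22 reads and the PEF libraries 514 to 610, and the log2 fold change was 5.22 ± 0.29 (SE; edgeR adjusted p = 1.10e-05). Its copy *sema3gb* had at most 11 reads in any library and was not tested. *sema3bl* (ENSAMXG00000034218), named as a gene like that of semaphorin 3B, was the second most abundant semaphorin of SEF. It had 64.3, 61.0 and 60.1 TPM there and 2.46, 5.15 and 4.67 TPM in PEF, a wide gap with a log2 fold change of −3.77 ± 0.31 (SE; edgeR adjusted p = 5.23e-05). *sema3h* (ENSAMXG00000038710), a class 3 gene of fishes, had 6.61, 4.41 and 5.91 TPM in SEF and 0.11, 0.04 and 0.07 TPM in PEF. Only 2 to 4 reads remained in a PEF library, and the log2 fold change was −6.45 ± 0.35 (SE; edgeR adjusted p = 9.88e-06). Here too, the SE does not fully cover the counting error of so few reads. Of the remaining class 3 genes, *sema3aa* fell by 1.15 and *sema3fb* by 0.70 on the log2 scale, and *sema3fa* had 9 to 17 reads in SEF and 0 in PEF, where it was at least 4.06-fold lower. *sema3fb* was not called without SEF replicate 1, at −0.68 (edgeR adjusted p = 0.0551). *sema3b* was called at 0.98 on 5 to 16 reads a library and lost its call without each of the 6 libraries in turn, at edgeR adjusted p-values of 0.0522 to 0.0877. The only class 3 gene tested and not called, *sema3ab*, had a value of 0.05 with a 95% interval of −1.32 to 1.41.

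The membrane-bound semaphorins of classes 4 to 7 were less abundant. All 5 tested genes of class 4, several of which bind B plexins in mammals, were called, 3 higher and 2 lower, beside 63.5% of all tested genes called. The class summed to 8.34 ± 1.26 TPM in SEF and 34.8 ± 2.92 TPM in PEF (SD, n = 3 each). The gain was mostly *sema4ba* (ENSAMXG00000037313), a copy of the gene for semaphorin 4B. It had 0.46, 0.47 and 0.24 TPM in SEF and 23.2, 22.9 and 20.8 TPM in PEF, from 40 to 81 reads in a SEF library to 3499 to 4197 in a PEF library. With tight values in PEF, the log2 fold change was 5.94 ± 0.25 (SE; edgeR adjusted p = 3.94e-06). *sema4c* and *SEMA4F* rose by 1.94 and 0.68, and *sema4ab* fell by 1.97 on the log2 scale. *sema4gb* had 3 reads or fewer in each PEF library and was at least 6.28-fold lower there against a floor of 3 reads per library. *SEMA4F* lost its call without SEF replicate 1 or 3 or PEF replicate 2 or 3, at 0.56 to 0.67. In class 5, whose members carry thrombospondin repeats, *sema5ba* (ENSAMXG00000003356) had 0.62, 0.62 and 0.70 TPM in SEF and 2.60, 4.56 and 3.09 TPM in PEF. All PEF libraries lay above all SEF libraries, at a log2 fold change of 2.46 ± 0.28 (SE; edgeR adjusted p = 0.000232). Its copy *sema5bb* had 0.10, 0.12 and 0.13 TPM in SEF and 0.68, 0.23 and 0.23 TPM in PEF, with a log2 fold change of 1.14 that did not pass (95% interval −0.10 to 2.37, edgeR adjusted p = 0.0948). In class 6, transmembrane ligands of A plexins, 4 of 6 tested genes fell and 1 rose. Those that fell were *sema6e*, at −1.10, *sema6bb*, at −1.38, and the rows *SEMA6A* and *sema6a*, at −2.46 and −2.40, between which reads could be split. *sema6bb* lost its call when any library other than PEF replicate 2 was left out, at −1.44 to −0.94. *sema6d* rose, at 3.42, from 2 to 4 reads in a SEF library to 18 to 36 in a PEF library. *sema6dl*, at −0.56, was called without SEF replicate 3 alone, at −0.79. *sema7a*, the class 7 semaphorin with a lipid anchor, had a mean of 23.3 TPM in SEF and 24.7 TPM in PEF, and its value of 0.17 (95% interval −0.24 to 0.59) did not pass.

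Neuropilins, the coreceptors of class 3 semaphorins and of vascular endothelial growth factors, summed to 64.2 ± 7.60 TPM in SEF and 217 ± 22.8 TPM in PEF (SD, n = 3 each). Most of the difference was *nrp2a* (ENSAMXG00000041234), with 21.6, 15.5 and 13.1 TPM in SEF and 184, 160 and 135 TPM in PEF. The lines were far apart, at a log2 fold change of 3.39 ± 0.22 (SE; edgeR adjusted p = 1.86e-05). Its copy *nrp2b* (ENSAMXG00000029255) had 33.9, 25.9 and 26.4 TPM in SEF and 47.0, 46.2 and 45.9 TPM in PEF. It rose too, without overlap but by less, at a log2 fold change of 0.70 ± 0.14 (SE; edgeR adjusted p = 0.00376). Of the neuropilin 1 copies, *nrp1b* fell, at −0.92, and *nrp1a* did not pass, at −0.13 with a 95% interval of −0.84 to 0.58. *nrp2a* took 21.8% to 29.5% of the neuropilin TPM in SEF and 69.9% to 77.2% in PEF.

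Plexins are the signaling receptors of semaphorins. Of 10 tested, 3 were higher in PEF, 4 were lower and 3 did not pass, and their sum was 68.7 ± 3.68 TPM in SEF and 105 ± 6.35 TPM in PEF (SD, n = 3 each). *PLXND1* (ENSAMXG00000017099), the gene for plexin D1, which patterns vessels in zebrafish and mouse, had 13.3, 10.2 and 10.1 TPM in SEF and 52.4, 65.2 and 62.2 TPM in PEF. All PEF libraries exceeded all SEF libraries, at a log2 fold change of 2.53 ± 0.17 (SE; edgeR adjusted p = 2.45e-05), while the level of its mouse ligand gene *sema3e* went the other way. *plxnb2a* (ENSAMXG00000019507), a plexin B2 gene, was the most abundant plexin of SEF, with 44.9, 52.2 and 53.9 TPM there and 42.9, 37.7 and 29.8 TPM in PEF. The libraries did not overlap but came close, and its log2 fold change of −0.37 (95% interval −0.71 to −0.03) just missed the threshold, at an edgeR adjusted p of 0.0555. It was called without SEF replicate 1 and without PEF replicate 1, at −0.46 and −0.44. *PLXND1* took 14.0% to 20.5% of the plexin TPM in SEF and 49.3% to 63.2% in PEF, and *plxnb2a* took 69.3% to 75.2% in SEF and 30.2% to 40.4% in PEF. The plexin B1 copies moved in opposite directions at low levels. *plxnb1b* (ENSAMXG00000016329) had 1.40, 1.73 and 1.28 TPM in SEF and 0.05, 0.23 and 0.21 TPM in PEF, at a log2 fold change of −2.99 ± 0.48 (SE; edgeR adjusted p = 0.00131). *plxnb1a* (ENSAMXG00000017120) had 0.03, 0.07 and 0.10 TPM in SEF and 0.84, 0.66 and 0.51 TPM in PEF, at a log2 fold change of 3.45 ± 0.45 (SE; edgeR adjusted p = 0.000468). Neither copy overlapped between the lines. Of the others, *PLXNA1* rose, at 1.04, and *plxna2*, *plxnc1* and *plxna1a* fell, at −2.78, −2.53 and −1.19. *plxna1a* had 10 to 48 reads a library, and its call was lost without any library other than PEF replicate 1, whose omission moved the value to −1.77. Omitting that library moved *plxnc1* to −3.19. *plxna3*, at 0.50, was called only without SEF replicate 3, at 0.85.

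**Figure D2:**
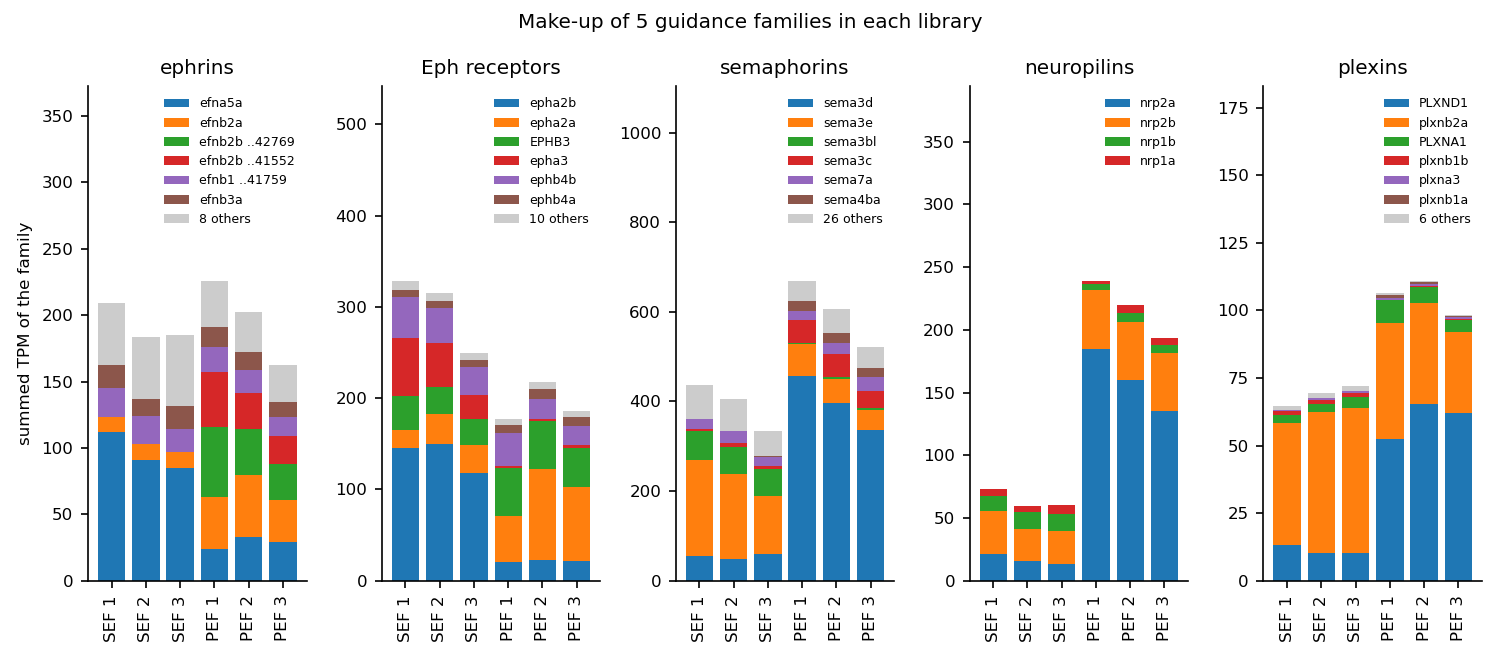
Summed TPM (y axis) of 5 guidance families in each of the 3 SEF and 3 PEF libraries (x axis), with the most abundant genes of a family in color and the rest in gray; the y axes differ between panels and start at 0. The ephrin columns, with both *efnb2b* rows counted, are of like height in both lines. The gene with the highest mean differs between the lines in all 5 panels.

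Slits are secreted proteins that repel axons and migrating cells. *slit3* (ENSAMXG00000010608) was the most abundant guidance gene of both lines, with 219, 211 and 206 TPM in SEF and 603, 538 and 517 TPM in PEF. The spread within a line was small beside the gap, and the log2 fold change was 1.48 ± 0.11 (SE; edgeR adjusted p = 3.80e-05). *slit1a* (ENSAMXG00000009035) had 74.7, 99.7 and 79.2 TPM in SEF and 2.63, 4.98 and 3.77 TPM in PEF. It fell in PEF to levels far under any SEF library, at a log2 fold change of −4.36 ± 0.28 (SE; edgeR adjusted p = 1.88e-05). *slit2* was low in both lines, at a mean of 0.35 TPM in SEF and 0.72 TPM in PEF, and did not pass at 1.02 (95% interval 0.09 to 1.95, edgeR adjusted p = 0.0553). It was called without SEF replicate 3, at 1.45, and without PEF replicate 3, at 1.24. *slit3* thus made up 67.9% to 74.5% of the Slit TPM in SEF and 99.0% to 99.4% in PEF.

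Robo genes, which encode the Slit receptors, were the one family with calls in a single direction. Of only 6 rows, 4 were lower in PEF and none higher, where 33.1% of all tested genes were lower and 30.4% higher. The family summed to 17.2 ± 3.03 TPM in SEF and 9.14 ± 1.39 TPM in PEF (SD, n = 3 each). *robo1* ENSAMXG00000012031 led the family in both lines, with 7.45, 6.78 and 5.91 TPM in SEF and 5.41, 6.06 and 6.52 TPM in PEF. These values overlapped, and the log2 fold change of −0.06 (95% interval −0.39 to 0.26) did not pass. The second row for that gene name, *ROBO1* ENSAMXG00000001638, was lower in PEF at −1.17, with a mean of 5.91 TPM in SEF and 2.49 TPM in PEF. It narrowly lost that call without SEF replicate 2, at −1.07 (edgeR adjusted p = 0.0507). *robo2* (ENSAMXG00000011947) had 0.93, 1.28 and 1.01 TPM in SEF and 0.12, 0.06 and 0.06 TPM in PEF, at a log2 fold change of −3.71 ± 0.32 (SE; edgeR adjusted p = 6.56e-05). It was thus close to silent in PEF, with 6 to 11 reads a library. *robo3* ENSAMXG00000003091, whose mammalian product lets commissural axons cross the midline, had 1.25, 1.59 and 0.67 TPM in SEF and 0.23, 0.22 and 0.24 TPM in PEF, without overlap, at −2.20 ± 0.32 (SE; edgeR adjusted p = 0.000833). The second row of that name, *ROBO3* ENSAMXG00000003056, did not pass, at −0.52. *robo4* (ENSAMXG00000003042), known mainly from endothelium, had 2.02, 1.83 and 1.81 TPM in SEF and 0, 0.03 and 0.01 TPM in PEF. It had 187 to 213 reads in a SEF library and at most 2 in a PEF library. Against a floor of 3 reads per library, it was at least 65.1-fold lower in PEF (edgeR adjusted p = 1.54e-05). Of the endothelial markers, *kdrl* fell too, from 57.3 to 102 TPM in SEF to 11.5 to 18.3 TPM in PEF, *pecam1* had 0.21 to 0.30 TPM in SEF and 0 in PEF, and *erg* rose from 28.6 to 38.8 TPM to 62.4 to 93.5 TPM. *egfl7* had at most 0.06 TPM in SEF and 0.13 to 0.29 TPM in PEF. *cdh5*, *tie1*, *tek* and *etv2* were at most 0.11 TPM in every library. The part of endothelial cells in the Robo differences was not tested.

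Netrins are laminin-like secreted guidance cues. *NTN1* (ENSAMXG00000037616), one of 2 netrin 1 genes listed, was among the most abundant guidance genes of both lines, with 139, 137 and 87.9 TPM in SEF and 138, 176 and 175 TPM in PEF. The libraries overlapped in TPM, though not in normalized counts, and the log2 fold change of 0.53 (95% interval 0.05 to 1.01) missed the threshold, at an edgeR adjusted p of 0.0543. It was called without PEF replicate 1, at 0.67 (edgeR adjusted p = 0.0184). The other, *ntn1b*, rose from a mean of 0.99 TPM to 3.69 TPM, at 1.89. *ntn4* rose as well, at 3.70 on at most 7 reads in a SEF library and 27 to 84 in a PEF library, and ranged from 2.96 without PEF replicate 1 to 4.49 without SEF replicate 3. *ntn5* had 18 to 38 reads in SEF libraries and 0 in those of PEF, where it was at least 9.36-fold lower.

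Unc5 receptors, through which netrins repel, were called in all 4 genes tested, 2 higher and 2 lower, beside 63.5% of all tested genes called. *UNC5C* (ENSAMXG00000007025) led the family in SEF, with 15.1, 11.7 and 5.79 TPM there and 0.58, 0.90 and 0.91 TPM in PEF. SEF replicate 3 was the lowest of its line and still far above PEF, and the log2 fold change was −3.63 ± 0.39 (SE; edgeR adjusted p = 0.000193). *unc5b* (ENSAMXG00000038405), active in vessel sprouting in mouse and zebrafish, led in PEF with 1.36, 1.35 and 1.61 TPM, against 0.79, 0.63 and 0.50 TPM in SEF. It did not overlap between the lines and rose at a log2 fold change of 1.28 ± 0.21 (SE; edgeR adjusted p = 0.00140). Of the Unc5d copies, *unc5db* rose, at 2.66, and *unc5da* had 61 to 63 reads in SEF libraries and no more than 1 in those of PEF, where it was at least 20.7-fold lower. *unc5a* had 0 reads in all 6 libraries. *unc50*, which belongs to none of these families, was alike in both lines, at a mean of 47.9 TPM in SEF and 47.1 TPM in PEF with a log2 fold change of 0.06 (95% interval −0.19 to 0.30).

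Among duplicate copies, the b copy took a different share of its pair in the lines for several genes. Of 20 pairs listed as a and b, 11 reached 1 TPM together in every library, and for 7 of these the shares did not overlap between the lines, where this held for 64.7% of all pairs of like names in the files, so the count is near the background. The more abundant copy was a different one for EphA2 and neuropilin 2. *epha2b* held 79.7% to 87.7% of its pair in SEF and 18.6% to 28.8% in PEF, and *nrp2b* held 61.1% to 66.8% in SEF and 20.3% to 25.3% in PEF. For ephrin-B2, both rows of *efnb2b* together held at most 0.673% of the pair in SEF and 57.1% to 70.8% in PEF. Counted against *efnb2a* with 1 row alone, *efnb2b* held 42.7% to 57.6% in PEF by ENSAMXG00000042769 and 37.0% to 51.7% by ENSAMXG00000041552, so which copy led in PEF depends on whether the rows are summed. The other 4 pairs without overlap kept the same leading copy, and 2 of them, *efna2* and *sema3f*, differed only within 98.2% to 100%. The *efnb3b* share was 30.8% to 43.1% in SEF and 18.9% to 24.9% in PEF, and the *nrp1b* share 66.7% to 71.9% in SEF and 53.1% to 62.9% in PEF.

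**Figure D3:**
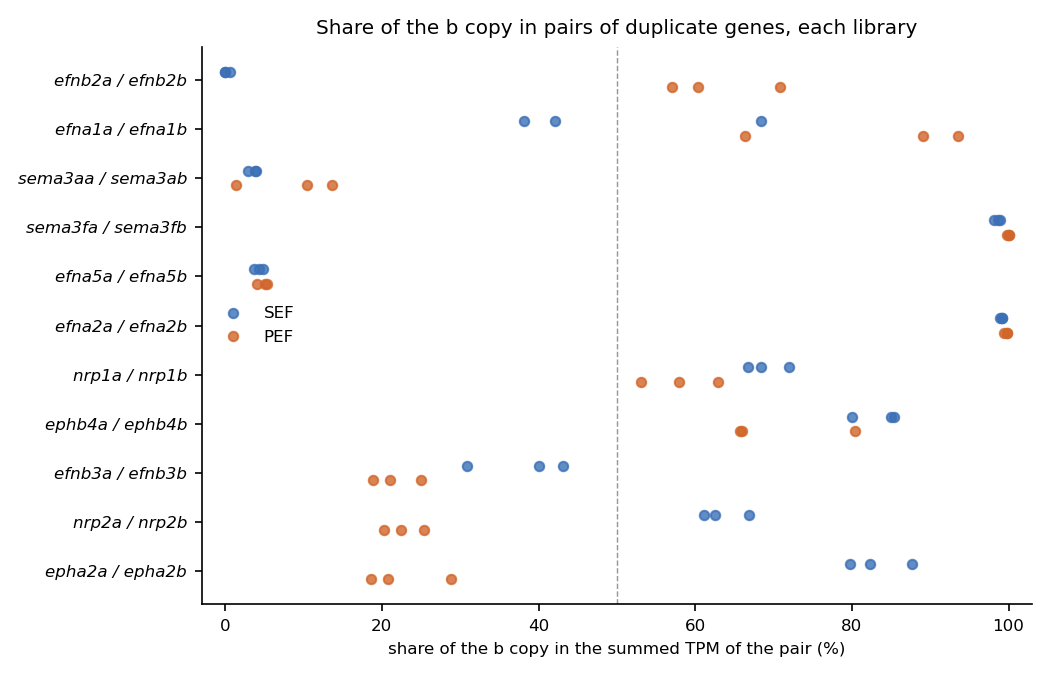
Share of the b copy in the summed TPM of each pair of duplicate genes (x axis, percent) for the 11 pairs at 1 TPM or more in every library (y axis), with 3 SEF libraries in blue and 3 PEF libraries in orange and a dashed line at equal levels. *epha2b* and *nrp2b* lie right of the line in SEF and left of it in PEF, and *efnb2b*, with its 2 listed genes summed, lies at the left edge in SEF and right of the line in PEF.

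Genes that neighbor each other did not always share a direction. Gene order was read by symbol in RefSeq's assembly AstMex3_surface, which placed 76 of the 97 genes and gave 6 pairs with at most 4 coding genes between them. The build of the files is not given in the sources used here, so no positions are stated. *sema3e*, *sema3ab* and *sema3d* follow one another with no other coding gene between, and their log2 fold changes were −1.56, 0.05 and 2.88, so that the leading semaphorin genes of the lines sit on either side of a gene that did not pass. *sema3b* and *sema3bl* are adjacent, with values of 0.98 and −3.77. The value of *sema3b* rests on 5 to 16 reads a library, and its call was lost without each library in turn. *efna1a* and *efna3a*, with 1 coding gene between them, both fell, at −1.76 and −7.15. The remaining pair, *sema5bb* and *unc50*, held no called gene.

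The other genes of these pathways were read from a list of coreceptors, growth factor partners, scaffold and protease genes and cytoplasmic effectors. The list matched 84 rows, and 12 of its symbols were not found by name. A symbol could match more than 1 row, as those of *src* and *crmp1* did. Of the 71 rows tested, 53 passed, 26 higher and 27 lower in PEF, beside the 63.5% of all tested genes. By class, these were 3 higher and 4 lower of 9 further receptors and ligands, 2 and 2 of 7 vascular endothelial growth factor genes and their receptors, 2 and 5 of 8 shedding and scaffold genes, and 19 and 16 of 47 cytoplasmic effectors. The largest rises were *CRMP1*, *kdr* and *srgap1b*. *CRMP1* ENSAMXG00000034986, a collapsin response mediator that acts below semaphorin 3A, went from a mean of 0.22 TPM in SEF to 11.9 TPM in PEF, at a log2 fold change of 5.50. The second row of that name, *crmp1* ENSAMXG00000003990, had 4 to 5 reads in a SEF library and at most 1 in a PEF library. That row was not tested. *kdr*, a receptor of vascular endothelial growth factor that pairs with neuropilins, had 0.18, 0.18 and 0.31 TPM in SEF and 5.99, 5.72 and 5.86 TPM in PEF, at 4.86. *kdrl*, a related and more abundant receptor gene, went the other way, with 57.3, 80.1 and 102 TPM in SEF and 11.5, 18.3 and 17.1 TPM in PEF, at −2.28 (edgeR adjusted p = 0.000425). *srgap1b*, a copy of the gene for a GTPase-activating protein that binds Robo receptors, went from a mean of 0.45 TPM to 8.96 TPM, at 4.34. The more abundant copy *srgap1a* had a mean of 37.9 TPM in SEF and 31.1 TPM in PEF and did not pass, at −0.21. The largest falls were *evlb*, *vegfc* and *fynb*. *evlb*, a gene of the Ena/VASP actin regulators, went from a mean of 2.56 TPM to 0.05 TPM, at −5.38, and *fynb*, a Src family kinase gene used by ephrin and semaphorin receptors, from 9.73 TPM to 0.49 TPM, at −4.34. The other copy, *fyna*, fell by less, from a mean of 13.35 TPM in SEF to 10.02 TPM in PEF, at −0.47. *vegfc*, a lymphatic growth factor gene whose product binds neuropilin 2, had 131, 144 and 153 TPM in SEF and 8.17, 3.53 and 2.62 TPM in PEF, at −4.79. Leaving *kdrl* aside, these 6 genes had edgeR adjusted p-values from 4.58e-06 to 0.000232, and none of them overlapped between the lines. They were picked for the size of their change, so small p-values and separate libraries follow largely from that choice. In normalized counts, libraries did not overlap for 76.1% of the tested pathway rows and 70.8% of all tested genes.

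The 13 guidance genes without a test had at most 14 reads in any library and at most 0.27 TPM. Of these, *epha6* and *unc5a* had 0 reads in all libraries, a count that leaves room for up to 3, and the others were *ephb1*, *ephb2b*, *efna2a*, *PLXNA2*, *plxna4*, *SEMA4D*, *sema3gb*, *sema4aa*, *sema4e*, *sema4ga* and *sema6ba*. Some were called where an alternative tested them. *efna2a*, *PLXNA2* and *sema4e* were lower in PEF with DESeq2, without a filter on low counts and with limma on unfiltered TPM, *SEMA4D* with the first and second of these and *sema4aa* with limma only. Against the floor, *efna2a*, with 10 to 14 reads in a SEF library and at most 3 in a PEF library, was at least 3.88-fold lower in PEF. Of the 63 calls, 13 were on genes with a mean under 1 TPM in both lines. Floors and bounds cover no spread beyond counting error. They do not fully cover that error where a few reads remained in the low line, as for *sema4gb* and *robo4*.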

How the data were processed

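RNA of SEF and PEF, prepared with a stranded poly(A) kit per the labels, was sequenced on a NextSeq 500, with 3 libraries per line. The authors deposited read counts per gene from STAR 2.7.3a, not normalized, and TPM values from RSEM, rounded to 2 decimals. The build, the annotation and the strand setting for these libraries are not given in the sources used here, so overlapping genes and genes listed under 2 identifiers are uncertain. Rows for unassigned reads were left out.

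Counts were tested in R 4.3.3 with edgeR 4.0.16 (TMM, filterByExpr, quasi-likelihood test, Benjamini-Hochberg adjustment over 16670 genes). Standard errors were derived from the F statistic, and 95% intervals from the t distribution with the fit's degrees of freedom. Where a line has only a few reads, as for *efna3a* and *sema3h*, such a standard error can be smaller than counting error. Where no library of a line exceeded 3 reads, the fold is a lower bound against a floor of 3 reads per library. Such a bound is no confidence limit. Members and lists were chosen with earlier results of these data known. Values per library are given for called genes with a log2 fold change of at least 2 in size and a mean of 100 reads or more in their higher line, the most abundant gene of each family and line, and their duplicates. Other genes were named after their values were seen. Alternatives used DESeq2 1.42.0, limma 3.58.1, other filters and fewer libraries. The labels do not say that replicate numbers pair the lines, and the main test used no pairing.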

Additional observations from a re-analysis of the deposited data

How the results depend on the processing

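Each of the 63 called guidance genes kept its direction under all alternatives in which it was tested. The number called was 67 of 92 tested (72.8%) with DESeq2, where 57.7% of all genes tested were called. It was 63 of 84 (75%) with upper-quartile normalization, beside 63.3% of all genes. With a null hypothesis of a log2 fold change of 1 it was 43 of 84 (51.2%), beside 30.6%. In the fits without 1 library it was 58 to 65, with 24 to 28 higher and 33 to 38 lower. These were 68.2% to 76.5% of the guidance genes tested, beside 54.8% to 63.8% of all genes. With at least 10 reads in every library it was 41 (69.5%), of which 22 were lower, since that filter leaves 59 guidance genes to test. Under that filter, 57.5% of all genes tested were called. Over all genes 9289 to 10968 were called when libraries were left out and 5103 against a log2 fold change of 1. For the pathway genes these were 46 to 52 (63% to 72.2% of those tested) and 27 (38%). In the fits without 1 library, 54 of the 63 calls held every time and 9 were lost at least once. The labels do not say that libraries of the same number belong together. Over all tested genes, deviations of log counts from the mean of the line were correlated between SEF and PEF libraries. These correlations were −0.04, 0.07 and −0.13 for same-numbered libraries, and from −0.15 to 0.15 for libraries of different number. They cannot show whether some genes share a replicate effect. Some genes, such as *sema3e* and *nrp2a*, fell from replicate 1 to 3 in both lines, and others did not. With a replicate block, 60 guidance genes (71.4% of those tested) were called, 26 higher and 34 lower. So were 9735 of all genes (58.4%) and 51 pathway genes (71.8%). Among genes given per library, *unc5b*, *efna5b* and *nrp2b* lost their call against a log2 fold change of 1, *NTN1* gained one without a filter, and *plxnb2a* gained one in 7 alternatives, at adjusted p-values of 0.0335 to 0.0455. Where a called gene has under about 10 reads in a line, the size of its fold rests on a few reads. Where both lines have few reads, as for *sema3b* at 5 to 16 reads a library, the call does so too. In addition, 3 libraries of 1 line do not cover differences between animals.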

Other observations

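Some guidance genes varied within a line as much as between the lines. *sema5a*, the gene for semaphorin 5A, which can attract or repel axons, had 5.69, 5.36 and 1.84 TPM in SEF replicates 1, 2 and 3 and 1.61, 4.80 and 5.17 TPM in PEF replicates 1, 2 and 3. *sema3ab* had 0.10 TPM in PEF replicate 1 and 0.54 and 0.58 TPM in the other PEF libraries. These genes were picked after their values were seen.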
